A study of Mus musculus with 11 samples.

Results

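The nuclear-encoded respiratory chain genes were taken as every gene symbol in the 4 expression tables, 1 for each age, that begins with Ndufa, Ndufb, Ndufc, Ndufs or Ndufv, with Cox4 to Cox8, with Uqcr or Uqcc, or with Atp5, leaving out symbols that mark a pseudogene. This gave 91 genes of the 24898 symbols in the tables. Of these, 89 stood in each of the 4 tables, and Cox6a2 and Cox8b stood only in that of P1. Complex I, which takes electrons from NADH, accounted for 44 members, of which 7 encode core subunits, 29 accessory subunits and 8 assembly factors. Complex III accounted for 11 members (8 subunits and 3 assembly factors), complex IV, or cytochrome c oxidase, for 19 and the ATP synthase for 17. The rule uses symbols alone and no measured value, though it was set with earlier results of these data known.

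The cells came from the cochlear ducts of wildtype CD1 mice, dissected free with thermolysin and dissociated, and were sequenced as single cells by the 10x Genomics 3′ method. Embryonic days 14 (E14) and 16 (E16) and postnatal days 1 (P1) and 7 (P7) were covered by 2, 3, 4 and 2 libraries, with 30634 cells in all and 1247 to 5598 cells in a library. The animals of a litter were pooled for each library, so that a library holds several animals of either sex. All groups share strain and genotype, and differ by age. The 2 P7 libraries carry the replicate numbers 4 and 5, and values of several libraries are given below in the order of their replicate numbers. Median depth lay between 2478 and 5648 unique molecular identifiers (UMIs, each standing for 1 captured transcript) per cell.

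Cells were placed in classes by marker genes, none of which is a respiratory chain gene. Hair cells (HCs) were gated on 10 genes, among them Pou4f3, Myo6 and Pvalb, and numbered 47, 584, 1054 and 265 from the earliest to the latest age. They were split into inner hair cells (IHCs; 118, 202 and 84 cells at E16, P1 and P7) and outer hair cells (OHCs; 230, 642 and 160 cells) by lists from which, at each age, only the genes with at least 1.5 times the level of other cells in HCs were used. For IHCs these were Fgf8, Slc17a8 and Kcnj13 at E16, with Tbx2, Atp2a3 and Shtn1 added at P1 and P7. For OHCs they were Insm1, Neurod6, Bcl11b, Strip2 and Cacng2 at E16, with Slc26a5 and Veph1 added at P1, and at P7 Ikzf2, Six2 and Aqp11 were added and Neurod6 was not used. Comparisons of ages within IHCs or OHCs thus rest on gates that differ between the ages. At E16, P1 and P7, 236, 210 and 21 HCs met neither gate and count only in the pooled HC class. At E14 only 5 cells met the OHC gate, so that HCs were pooled and described without a test. Lateral supporting cells (SCs), gated on pillar and Deiters' cell genes such as Fgfr3 and Prox1, numbered 175, 403, 866 and 171. The paper finds both genes in lateral prosensory cells at E14 and E16, which this gate does not part from SCs. The class can thus hold progenitors at these ages, and its make-up may differ between ages. Between 45.2% and 63.8% of the cells of an age were placed in no class. HCs held more UMIs per cell than lateral SCs at E16 (library medians of 2441 to 4071 against 1797 to 3050.0) and P1 (5339 to 9649 against 4456 to 7519), and about as many at P7 (7040.0 to 7147 against 7129 to 7244).

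Markers of other cell types were also looked up in these classes. The 6 Kölliker's organ markers, which include Calb1, a calcium buffer that HCs use as well, summed to 462 to 589 counts per 1000000 UMIs (CPM) in HCs against 603 to 881 CPM in lateral SCs at E16, 1191 to 3719 against 192 to 1088 CPM at P1 and 3188 to 4898 against 1308 to 1799.8 CPM at P7, beside 9655 to 10113 CPM in Kölliker's organ-type cells at P7. The 4 globin genes summed to 39.4 to 1643 CPM in HCs and at most 2.1 CPM in lateral SCs at E16, and to at most 9.50 CPM in HCs at P1 and P7. Glial markers summed to 11.5 to 198 CPM in HCs and 10.2 to 13.1 CPM in lateral SCs at P7. The 5 neuronal markers, among them the cytoskeletal genes Nefl, Nefm and Tubb3, summed to 599.7 to 1113 CPM in HCs and 34.1 to 47.2 CPM in lateral SCs at P1, with Prph at 0 in both. The 11 lateral SC markers summed to 1580 to 1613 CPM in lateral SCs and 730 to 846 CPM in HCs at E14. At P7 these sums were 7449 to 7631 CPM and 656 to 895 CPM. Free RNA and mixed droplets were not modelled here and their part in the results below was not tested. The part of Calb1 in the Kölliker's organ sums was not tested either. Under a stricter gate, cells with markers of other types were left out and the marker cut-offs of the classes were raised as well. For HCs at least 6 markers were needed in place of 4, with a larger share of UMIs in the marker list. Weakly marked cells could thus be lost too, and which of these changes moved a result was not tested. Counts under the stricter gate are given below where they differ by more than 1.5 times and for HCs against lateral SCs.

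The respiratory chain sits in the inner mitochondrial membrane. Complexes I, III and IV pass electrons from NADH to oxygen and pump protons, and the ATP synthase uses the proton gradient to make ATP. Most subunits are encoded in the nucleus and imported, while a part of the core of each of these complexes is encoded by mitochondrial DNA, and several complex IV subunits exist as isoforms used in different tissues. HCs are rich in mitochondria and use ATP to drive the pumps that clear the calcium entering through their transduction channels.

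The promoter stretches below are shown for the members with the largest excess in HCs at P1 for which a RefSeq start-site window was at hand. Each line gives the 150 bases before the annotated start in the direction of transcription (mouse GRCm38.p6, RefSeq), with the searched letters in capitals. The windows lie at chr17:31519965-31520114, plus strand (Ndufv3), chr2:36049339-36049488, minus strand (Ndufa8), chr5:115348959-115349108, minus strand (Cox6a1) and chr10:80406822-80406971, minus strand (Uqcr11).
Ndufv3: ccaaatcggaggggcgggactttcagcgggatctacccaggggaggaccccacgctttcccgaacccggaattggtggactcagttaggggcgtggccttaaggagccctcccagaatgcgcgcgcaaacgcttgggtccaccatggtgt
Ndufa8: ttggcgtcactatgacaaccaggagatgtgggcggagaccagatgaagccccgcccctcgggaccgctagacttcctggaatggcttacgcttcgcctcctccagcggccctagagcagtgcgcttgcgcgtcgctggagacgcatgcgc
Cox6a1: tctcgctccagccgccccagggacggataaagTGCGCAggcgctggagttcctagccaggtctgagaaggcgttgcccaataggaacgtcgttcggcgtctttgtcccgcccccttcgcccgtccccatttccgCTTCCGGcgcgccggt
Uqcr11: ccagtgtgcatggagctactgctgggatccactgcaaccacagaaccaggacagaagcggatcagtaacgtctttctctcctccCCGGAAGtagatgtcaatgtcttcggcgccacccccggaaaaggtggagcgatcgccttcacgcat
Ndufv3 and Ndufa8 encode accessory subunits of complex I, Cox6a1 an isoform of complex IV subunit 6A, and Uqcr11 a small complex III subunit. Ndufaf6 and Ndufb9, which rank among the same 6, had no window.

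In all, 74 of the 91 members had a window, with 79 windows between them, and 4 short sequences were searched on both strands in the 250 bases before the start. TGCGCA, the core of the site of nuclear respiratory factor 1 (NRF1), was in 14 of the 79 member windows (17.7%) and in 6.43% of all 32851 windows. CCGGAAG, a core of ETS factors such as GABP, was in 13 (16.5%) against 6.91%. AAGGTCA, a core of the site of estrogen-related receptors, was in 6 (7.59%) against 4.08%, and AAGATGG, a YY1 core, in 1 (1.27%) against 4.49%. At least 1 of the 4 was in 27 windows (34.2%) against 19.9%. Of the stretches printed, that of Cox6a1 holds the NRF1 letters at position -118 and the ETS letters on the other strand at position -16, counted from the start site, that of Uqcr11 holds the ETS letters at -66, and those of Ndufv3 and Ndufa8 hold none of the 4. These are letter matches and not measured binding sites. For Cox6a1, Ndufa8 and Uqcr11 the RefSeq start differs from the GENCODE gene position given for some genes below. Their windows reach into the gene as GENCODE places it, and the ETS letters of Cox6a1 lie in that part.

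The summed level of the members had a higher mean at each later age in HCs, with E16 and P1 apart by less than the spread between libraries, and in lateral SCs its means lay between 2.75% and 3.36%. In HCs the members together took 2.96% ± 0.30 (SD, n = 2) of all UMIs at E14, 3.99% ± 0.32 (SD, n = 3) at E16, 4.31% ± 0.77 (SD, n = 4) at P1 and 6.26% ± 1.00 (SD, n = 2) at P7. In lateral SCs the sums were 2.75% ± 0.25 (SD, n = 2), 3.31% ± 0.23 (SD, n = 3), 2.98% ± 0.37 (SD, n = 4) and 3.36% ± 0.61 (SD, n = 2). By library the P1 HCs held 5.41%, 4.13%, 4.10% and 3.61% and the P1 lateral SCs 3.47%, 2.96%, 2.91% and 2.57%, and the P7 HCs held 5.55% and 6.96% against 2.93% and 3.80%. The 2 classes did not overlap at E16, P1 or P7, and the library with the highest HC sum at P1 and at P7 also had the highest SC sum. These are shares of a cell's transcripts, so that a larger share for the members means a smaller share for other genes, and between ages the library preparation differs along with the age.

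**Figure D1:**
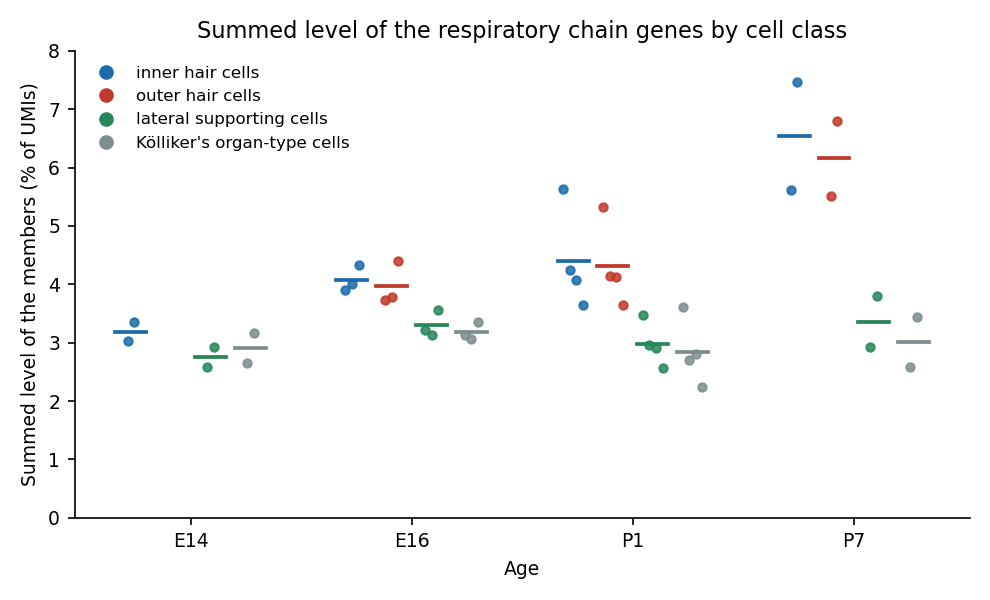
Summed level of the 91 members as a percent of the UMIs of a cell (y axis) at each age (x axis), averaged over the cells of a class. Points are libraries, bars their mean, and IHCs, OHCs, lateral SCs and Kölliker's organ-type cells have their own colors. At P7 both HC types lie above every lateral SC and Kölliker's organ value, and at E14, where OHCs are not drawn, IHCs overlap Kölliker's organ-type cells.

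Within a library, the ratio of the HC sum to the lateral SC sum averaged 1.07 (1.07 to 1.08) at E14, 1.21 (1.19 to 1.22) at E16, 1.44 (1.40 to 1.56) at P1 and 1.86 (1.83 to 1.90) at P7, the values in parentheses being the lowest and highest library. The ranges of the 4 ages did not overlap, though the lateral SC class itself may differ in make-up between the ages. Each complex followed the same order of ages. For complex I the mean ratio was 1.03, 1.21, 1.52 and 1.75, for complex III 1.06, 1.13, 1.39 and 1.91, for complex IV 1.10, 1.21, 1.43 and 2.0, and for the ATP synthase 1.11, 1.23, 1.39 and 1.84. Against Kölliker's organ-type cells, the HC sum was 1.02 (1.00 to 1.03) times as high at E14, 1.25 (1.22 to 1.30) at E16, 1.52 (1.46 to 1.61) at P1 and 2.09 (2.02 to 2.15) at P7.

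**Figure D2:**
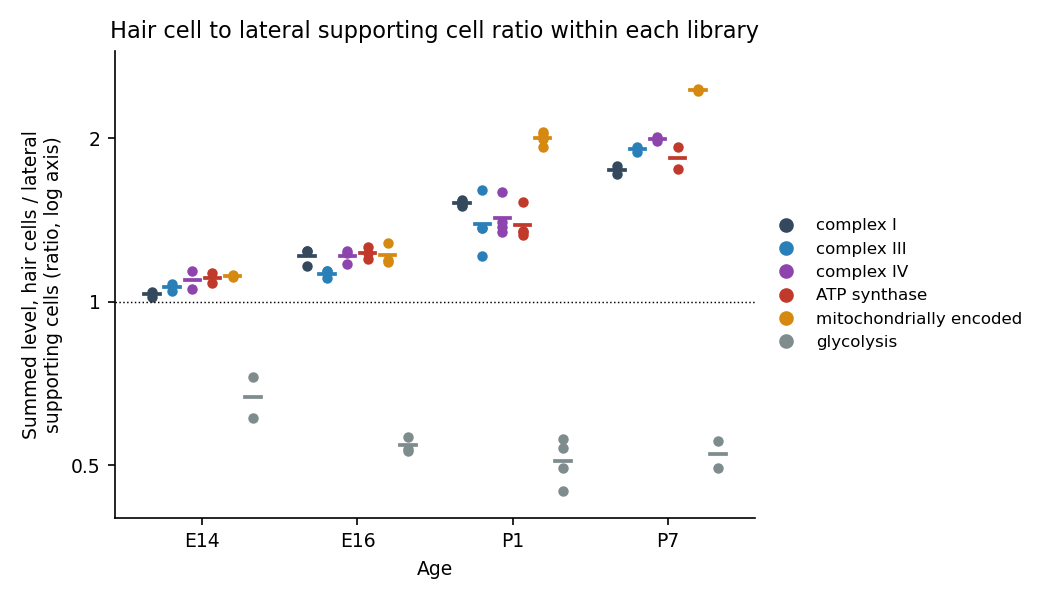
Ratio of the summed level in HCs to that in lateral SCs of the same library (y axis, log scale) at each age (x axis) for the 4 complexes, the mitochondrially encoded subunits and the glycolysis enzymes. Points are libraries and bars their means; the complexes lie near 1 at E14 and between 1.75 and 2.0 on average at P7, and glycolysis lies below 1 at every age.

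The 13 subunits encoded by mitochondrial DNA had larger ratios at P1 and P7 than any of the 4 complexes, with mean HC to lateral SC ratios of 1.12, 1.22, 2.0 and 2.46. By library they took 2.46%, 2.22% and 1.78% of HC UMIs in the E16 libraries, 1.60%, 0.97%, 1.08% and 1.63% in those of P1 and 1.20% and 2.70% in those of P7. In lateral SCs these shares were 2.09%, 1.73% and 1.49%, then 0.83%, 0.48%, 0.54% and 0.79%, and 0.49% and 1.09%. These genes had lower shares at P1 than at E16 in every library of both classes. From E16 to P1, 0 were called higher and 4 of 9 tested lower in IHCs, 0 and 7 of 10 in OHCs, and 0 and 8 of 9 in lateral SCs, where 2.80%, 3.81% and 1.38% of all genes were called lower. The part that such a shift between libraries has in the members' sums by age was not tested. Cells with a high share of mitochondrial transcripts had been removed by the authors, which limits how high this sum can be. The summed level of the glycolysis enzymes went the other way, with mean ratios of 0.669, 0.544, 0.51 and 0.524. Among the other P1 classes, the members took 2.84% ± 0.57 (SD, n = 4) of UMIs in Kölliker's organ-type cells, 2.77% ± 0.42 (SD, n = 4) in inner phalangeal-type cells, 3.05% ± 0.44 (SD, n = 4) in cells with Hensen's cell and outer sulcus markers, 2.69% ± 0.29 (SD, n = 4) in interdental-type cells and 2.81% ± 0.75 (SD, n = 3) in roof-type cells. These values lie within the spread over libraries of each other and of the lateral SCs, and below the means of IHCs, 4.40% ± 0.86 (SD, n = 4), and OHCs, 4.31% ± 0.72 (SD, n = 4).

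Gene by gene, most members were higher in HCs than in lateral SCs of the same libraries at P1 and P7. Of 86 members tested at each age, 22 were higher in HCs and 2 lower at E16, where 12.7% and 10.7% of all 8876 genes tested were higher and lower. At P1, 60 were higher and 6 lower, against 32.8% and 27.1% of 9175 genes, and at P7, 60 were higher and 2 lower, against 28.3% and 22.5% of 8984 genes. The median log2 fold change of the members was 0.22 at E16, 0.50 at P1 and 0.73 at P7, beside 0.023, 0.061 and 0.10 over all genes tested. Calls are at an adjusted p under 0.05 in limma, with the library as a block. Of the 60 members called higher at P1, 59 were higher in 4 of 4 libraries and Uqcc2 in 3 of 4, and at P7 all 60 were higher in both libraries. In an alternative, each class profile of a library was centred on its own median gene. This moved the median of all genes from 0.061 to -0.050 at P1 and from 0.10 to -0.037 at P7. With it, 55 members were higher and 7 lower at P1, and 49 and 3 at P7. Under the stricter gate 14 members were higher and 0 lower at E16, 60 higher and 6 lower at P1, and 57 higher and 2 lower at P7. Leaving out E16 replicate 2, 14 were higher and 1 lower at E16. Shares over all genes under these settings are not given here, and whether the members moved apart from other genes was not tested. The P7 fit rests on 2 libraries, and its spread was shared over all genes rather than estimated for each.

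Of the members, 21 of the 85 tested at every age (24.7%) were called higher in HCs at E16, P1 and P7, beside 7.49% of all 7607 genes tested at every age, and Cox4i2 was called lower at all 3 (1.18%, beside 7.41%). Both at P1 and at P7, 52 were higher (61.2%, beside 19.3%), and 17 were called higher at none of the 3 ages (20.0%, beside 60.8%). The fold was above 0 at each age for 63 (74.1%, beside 32.2%), and it grew from E16 to P1 to P7 for 53 (62.4%, beside 25.8%).

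**Figure D3:**
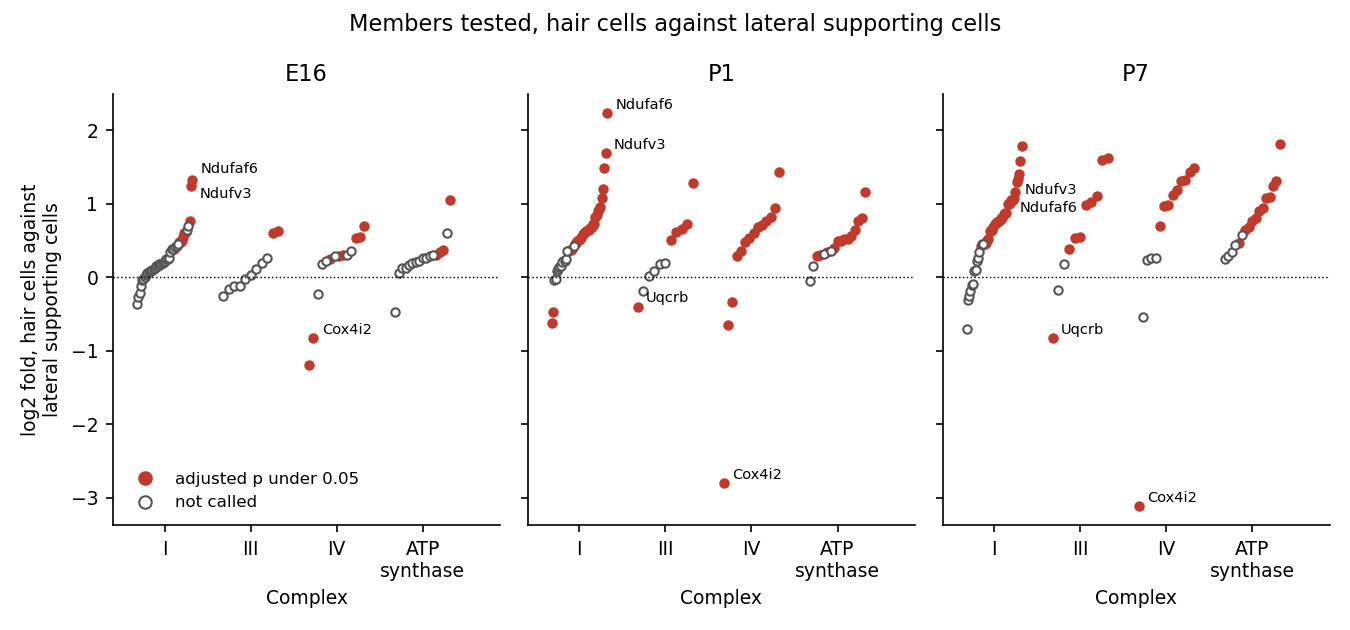
Log2 fold change of each tested member between HCs and lateral SCs (y axis) at E16, P1 and P7 (panels), grouped by complex (x axis) and ordered by fold within it. Filled red points passed an adjusted p under 0.05 and open points did not; the cloud moves up from E16 (median 0.22) to P7 (median 0.73), while Cox4i2 moves down to -3.11.

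Of the complex I members, which are the most numerous, 31 of 44 were higher in HCs and 2 lower at P1 (limma). At P7, 31 were higher and 0 lower. Over all complexes, 64 of the 86 members tested at P7 had an unadjusted p under 0.05 in limma. The accessory subunits of complex I, which stabilize and help assemble it, were higher in 26 of 29 cases at P1 and 23 of 29 at P7. Its core subunits, which hold the flavin and iron-sulfur centers, were higher in 2 of 7 cases at P1 (Ndufs1 and Ndufv2) and 5 of 7 at P7, with median log2 fold changes of 0.20 and 0.87 beside 0.61 and 0.75 for the accessory subunits. Of the 8 assembly factors, 3 were higher at each of the 2 ages. The shares for the core subunits at P1 and for the assembly factors at both ages lie near those of all genes (32.8% higher at P1 and 28.3% at P7). At E16, 9 accessory subunits, 0 core subunits and 1 assembly factor were higher, against 12.7% of all genes (limma). Over all complexes, 37 of the 86 members tested at E16 had an unadjusted p under 0.05. Shares of all genes at an unadjusted p are not given here, so that these counts of members have no background.

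Ndufv3 (chr17:31520115-31531331, plus strand) encodes a small accessory subunit of the NADH-binding part of complex I. Its level by library was 415, 401 and 490.4 CPM in HCs and 175, 159 and 202 CPM in lateral SCs at E16. At P1 it was 669, 492, 489 and 327 CPM in HCs and 202, 143, 161 and 87.2 CPM in lateral SCs. The HC values lay above all SC values at both ages, at E16 by a log2 fold change of 1.24 (standard error 0.15, adjusted p = 2.97e-06) and at P1 by 1.68 (standard error 0.10, adjusted p = 1.09e-09). At P7 the levels were 385 and 627 CPM in HCs and 137 and 274 CPM in lateral SCs, higher in HCs of both libraries.

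Ndufa8, another accessory subunit (chr2:36036326-36049406, minus strand), was at 356, 351 and 422 CPM in HCs and 245, 188 and 222 CPM in lateral SCs at E16. At P1 it reached 773, 887, 889 and 688 CPM in HCs against 285, 306, 241 and 297 CPM (log2 fold change 1.48, standard error 0.11, adjusted p = 7.02e-09). The HC values at P1 all lay above those at E16, the SC ranges overlapped, and the change of the difference itself was 0.72 on the log2 scale (adjusted p = 0.0123), which passed neither under the stricter gate nor without the filter on low values. Ndufb9 (chr15:58933756-58939488, plus strand), a subunit of the membrane arm, went from 475, 443 and 446 CPM in HCs at E16 to 1043, 841, 924 and 861 CPM at P1 and 1579.9 and 1649.9 CPM at P7, while its lateral SC values lay between 286 and 521 CPM over the 3 ages. It was higher in HCs at P1 (log2 fold change 1.20) and P7 (1.78, adjusted p = 1.02e-22). Its exons overlap those of a same-strand gene model, Gm49356, and reads of the pair may not be told apart.

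Ndufaf6 (chr4:11051045-11076205, minus strand), an assembly factor of complex I, had the largest excess in HCs at E16 and P1 and was lower at P7. At E14 its levels were 152 and 64.4 CPM in HCs and 31.8 and 42.4 CPM in lateral SCs. HCs held 124, 113 and 115 CPM at E16 and 162, 165, 204 and 222 CPM at P1, and lateral SCs 48.7, 46.5 and 29.1 CPM at E16 and 28.4, 29.7, 25.3 and 47.2 CPM at P1. The fold at P1 was 2.23 on the log2 scale (standard error 0.14, adjusted p = 1.95e-09). At P7 HCs held 38.7 and 22.6 CPM and lateral SCs 9.48 and 8.96 CPM, so that both classes were below their P1 values in every library while HCs stayed higher (log2 fold change 1.05, adjusted p = 0.00632). The lateral SC values at P7 lie below the 10 CPM filter, which Ndufaf6 passed at that age only through HCs. Between P1 and P7 its HC excess fell by 1.18 on the log2(CPM + 10) scale (adjusted p = 0.00614). Since the SC values at P7 lie below the 10 CPM added, the size of this fall depends on it, and with 1 CPM added the fall was 0.94 and did not pass (adjusted p = 0.0795), nor did it without P7 replicate 5 (-0.91, adjusted p = 0.0802). The HC to SC ratio by library was 5.70, 5.56, 8.06 and 4.70 at P1 and 4.08 and 2.52 at P7, with no overlap. Ndufaf3, another assembly factor, went from 4 of 4 libraries higher in HCs at P1 to 1 of 2 at P7. HCs held 146, 132, 147 and 124 CPM at P1 against 77.1, 57.3, 65.0 and 42.6 CPM in lateral SCs, and 90.5 and 71.6 against 61.4 and 124 CPM at P7, and its HC excess fell by 1.19 (adjusted p = 0.00732), which did not pass without P7 replicate 5 (-0.59, adjusted p = 0.208) and was -1.80 without P7 replicate 4.

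Ndufs8 and Ndufs4 were the complex I subunits lower in HCs at P1. Ndufs8, a core iron-sulfur subunit, was at 178, 183, 152 and 128 CPM in HCs and 301, 281, 279.7 and 163 CPM in lateral SCs (log2 fold change -0.62, adjusted p = 2.63e-04), lower in 4 of 4 libraries, with replicate 4 apart from the other SC values. Ndufs4, an accessory subunit, was at 213, 156, 153 and 113 CPM against 255, 214, 204 and 205 CPM (log2 fold change -0.47, adjusted p = 0.00326). At E16 neither passed the test, with log2 fold changes of -0.034 and -0.28, nor at P7, with -0.19 and -0.31.

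Of the complex III members, 5 of 11 were higher in HCs at P1 and 8 at P7, beside 32.8% and 28.3% of all genes, and Uqcrb was lower at both ages. Uqcr11 (chr10:80402997-80406830, minus strand) was at 900.4, 895 and 1097 CPM in HCs and 556, 598 and 719 CPM in lateral SCs at E16. At P1 it was at 1488, 879, 692 and 578 CPM against 594, 373, 299.6 and 214 CPM (log2 fold change 1.27, standard error 0.086, adjusted p = 3.95e-09). HC and SC ranges overlapped over the P1 libraries, and HCs were above the lateral SCs of the same library in 4 of 4. Uqcrh, the hinge protein that helps dock cytochrome c1, was at 1500.5 and 2286 CPM in HCs and 457 and 811 CPM in lateral SCs at P7 (log2 fold change 1.59). Uqcrb, which encodes the subunit that helps form the ubiquinone site, went the other way, at 183, 27.3, 21.5 and 83.7 CPM in HCs and 196, 45.4, 29.7 and 132 CPM in lateral SCs at P1 (log2 fold change -0.40, adjusted p = 0.0264), and at 64.9 and 73.5 against 113 and 149.8 CPM at P7 (-0.83, adjusted p = 0.00239). Of the 50-base stretches in the last 300 bases of its transcripts, 40.6% also occur in other genes, so that its count is uncertain, and at P1 it did not pass without replicate 2 (-0.34, adjusted p = 0.0996) or replicate 4 (-0.33, adjusted p = 0.0996). Under the stricter gate its P1 fold was -0.61 (adjusted p = 0.00692). The core proteins Uqcrc1 and Uqcrc2 did not pass the test at P1, with log2 fold changes of 0.19 and -0.19.

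All but 3 of the 14 complex IV members tested were higher in HCs at P1, and those 3 (Cox4i2, Cox6b2 and Cox7a2l) were lower. At E16 the counts were 6 higher and 2 lower, and at P7 9 and 1. Over all genes, 12.7% were called higher and 10.7% lower in the E16 test, 32.8% and 27.1% in that of P1, and 28.3% and 22.5% in that of P7. Cox6a1 (chr5:115345642-115348981, minus strand), the non-muscle isoform of subunit 6A, was at 885, 905 and 1185 CPM in HCs and 663, 534 and 626 CPM in lateral SCs at E16. It was at 1926, 1505, 1381 and 1497 CPM and 769, 586, 583 and 407 CPM at P1 (log2 fold change 1.44, standard error 0.097, adjusted p = 3.72e-09), and at 1906 and 2652 CPM and 642 and 981 CPM at P7. HCs lay above lateral SCs in every library of the 3 ages. Cox8a, the non-muscle isoform of subunit 8, was at 2565 and 4279 CPM in HCs and 985 and 1512 CPM in lateral SCs at P7, a log2 fold change of 1.43 that was 0.83 above that at P1 (adjusted p = 2.34e-04).

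The subunit 4 isoforms parted between the classes. Cox4i1 (chr8:120668222-120674207, plus strand) is the form used in most tissues, and Cox4i2 (chr2:152754173-152765037, plus strand) an alternative form known chiefly from lung and oxygen-sensing cells. At P1 Cox4i2 was at 48.6, 46.5, 45.7 and 43.1 CPM in HCs and 431, 418, 506 and 230.2 CPM in lateral SCs (log2 fold change -2.81, standard error 0.15, adjusted p = 2.75e-10). At E16 it was at 57.3, 41.0 and 75.2 CPM and 114, 105 and 105 CPM (log2 fold change -0.83, adjusted p = 0.0175), and at P7 at 12.1 and 17.4 CPM and 172 and 236 CPM (log2 fold change -3.11, adjusted p = 3.03e-28). The SC values did not overlap those of HCs at any of these ages. The E16 fold did not pass under the stricter gate (-0.37, adjusted p = 0.592), with UMIs summed over cells (-0.61, adjusted p = 0.0709) or without E16 replicate 2 (-0.66, adjusted p = 0.167). At E14 the order was the reverse, with 34.6 and 36.5 CPM in HCs and 26.4 and 10.2 CPM in lateral SCs. From E16 to P1 the difference between the classes changed by -1.98 on the log2 scale (adjusted p = 1.76e-04). In lateral SCs the level was higher at P1 than at E16 (log2 fold change of P1 against E16 1.73, adjusted p = 0.00131). At P1 Kölliker's organ-type cells held 8.38 to 11.9 CPM and interdental-type cells 3.64 to 12.2 CPM. Inner phalangeal-type cells held 182, 246, 233 and 149 CPM at P1 and 70.3 and 30.2 CPM at P7, and cells with Hensen's cell and outer sulcus markers 20.9, 34.5, 13.4 and 19.3 CPM at P1.

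Cox4i1 was higher in HCs at the same ages, at 2739.9, 2487, 2764 and 2406 CPM against 1949, 2073, 2145 and 1910.3 CPM at P1 (log2 fold change 0.36, adjusted p = 1.35e-04) and 3353 and 3368 CPM against 1658 and 1771 CPM at P7 (log2 fold change 0.97, adjusted p = 3.70e-08). At E16 its fold was 0.25 (adjusted p = 0.0135). An overlapping gene on the other strand, Emc8, shares exonic sequence with Cox4i1.

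**Figure D4:**
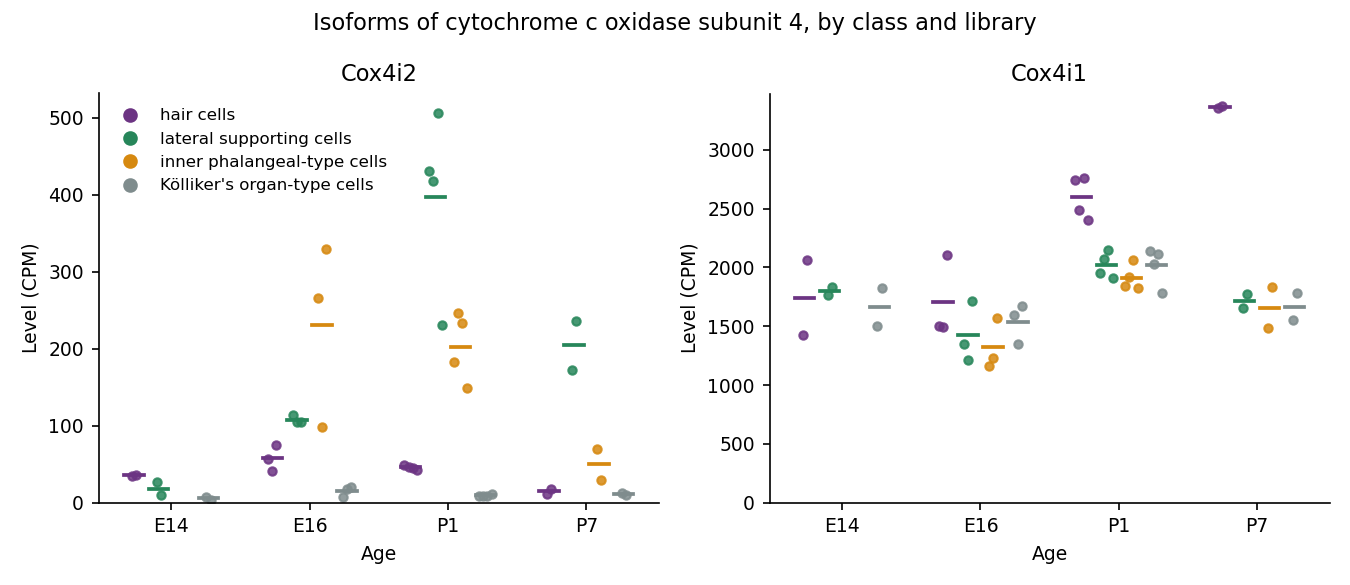
Level in CPM (y axis, from 0) of Cox4i2 (left) and Cox4i1 (right) at each age (x axis) in HCs, lateral SCs, inner phalangeal-type cells (not drawn at E14) and Kölliker's organ-type cells. Points are libraries and bars their means; Cox4i2 peaks in lateral SCs at P1, at 230.2 to 506 CPM, with HCs at 43.1 to 48.6 CPM, and Cox4i1 is highest in HCs at P7.

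The other isoform sets went as follows. Cox6b1 was higher in HCs at all 3 ages (log2 fold change 0.47 at P1), and Cox6b2, the testis form, was lower at E16 (log2 fold change -1.19, adjusted p = 0.015) and P1 (-0.66, adjusted p = 0.00766), at low levels of 5.54 to 8.98 CPM in HCs and 8.07 to 28.0 CPM in lateral SCs at P1. The HC values of Cox6b2 at P1 all lie below the 10 CPM filter, which it passed only through lateral SCs. It did not pass at E16 under the stricter gate (-1.12, adjusted p = 0.17) or without replicate 3 (-1.11, adjusted p = 0.106). Nor did it pass at P1 without replicate 3 (-0.50, adjusted p = 0.0705). With 1 CPM added its folds at E16 and P1 were -2.02 and -1.12. Cox7a2 was higher in HCs at all 3 ages (0.94 at P1), Cox7a2l, which takes part in joining complexes III and IV, was lower at P1 (-0.34, adjusted p = 8.53e-04), and the muscle form Cox7a1 stayed at or below 24.6 CPM in both classes. Cox7b was higher at E16 and P1 (0.53 and 0.69). Among the genes of the ATP synthase c-ring, Atp5g1 was higher at all 3 ages and Atp5g3 at P1 (0.52) and P7 (0.64), while Atp5g2 was not called at any. Ndufa4, now counted as a complex IV subunit, was higher at P1 (0.76) and P7 (1.12). Ndufa4l2 and Cox7b2 were too low to test, with library values of at most 2.71 CPM for Ndufa4l2 in HCs and lateral SCs, and 0 to 1.30 CPM for Cox7b2. Cox6a2 and Cox8b were too low to test at P1 and had no values at the other ages.

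Of the ATP synthase members, 13 of 17 were higher in HCs at P1 and 12 at P7, beside 32.8% and 28.3% of all genes, and 0 were lower at either age. Atp5s and Atp5sl, which are counted here by symbol and are not subunits, were not called. Atp5g1, a c-ring gene, was at 777, 859.9 and 654 CPM in HCs and 359, 438 and 301 CPM in lateral SCs at E16, a log2 fold change of 1.05 (adjusted p = 1.06e-06). At P1 HCs held 934, 638, 549 and 459 CPM and lateral SCs 688, 409.9, 339 and 361 CPM, and the HC excess was smaller than at E16 (change -0.53 on the log2 scale, adjusted p = 0.0191), a change that passed neither under the stricter gate nor without the filter on low values. In the last 300 bases of its transcripts, 20.3% of 50-base stretches also occur in other genes. Atp5k (chr5:108433244-108434448, minus strand), the e subunit of the membrane part, was the member with the largest fold at P7, at 248 and 471 CPM in HCs and 55.0 and 144 CPM in lateral SCs (log2 fold change 1.82, standard error 0.22, adjusted p = 1.02e-15). Atp5b, the catalytic beta subunit, was at 1324, 1085, 1185 and 1177 CPM in HCs and 886, 986, 975 and 907 CPM in lateral SCs at P1, and at 1915 and 1418 CPM and 873 and 691 CPM at P7, with log2 fold changes of 0.34 and 1.07.

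Whether the HC excess itself differed between ages was tested on the within-library differences. The lateral SC class, which can hold prosensory cells at E16, may change in make-up between these ages as well. From E16 to P1, 16 of 86 members gained and 2 lost (Cox4i2 and Atp5g1), against 6.18% and 5.65% of 9112 genes, with a median change of 0.25 for the members and -0.018 for all genes. From P1 to P7, 23 gained and 2 lost (Ndufaf3 and Ndufaf6), against 11.2% and 11.1% of 9269 genes, with medians of 0.20 and 0.054. Among the members that passed this test, the 6 with the largest gains up to P1 were Ndufaf6 (0.90), Atp5k (0.82), Cox6a1 (0.75), Ndufa8 (0.72), Uqcr11 (0.65) and Atp5j (0.61), all on the log2 scale. Among those that passed, large gains up to P7 were those of Ndufv1 (0.92), a core subunit of complex I, Ndufb7 (0.87), Uqcrh (0.87), Cox8a (0.83) and Ndufa6 (0.79). For Ndufv1, which binds NADH, HCs held 151, 143, 142 and 129.8 CPM and lateral SCs 116, 122, 114 and 118 CPM at P1, with no overlap. At P7 HCs held 275 and 205 CPM and lateral SCs 119 and 84.1 CPM. Without P7 replicate 4, 11 members were called in all between P1 and P7, and without P7 replicate 5, 16. The calls up to P1 hung on the processing, with 18 in all, 7 under the stricter gate and 8 without the filter on low values, and those up to P7 were 25 in all and 16 without the filter. Uqcr11, Atp5j and Cox4i2 passed up to P1 under both, while Ndufaf6, Atp5k, Cox6a1, Ndufa8 and Atp5g1 passed under neither. Under the stricter gate the gain of Ndufaf6 was 0.45, adjusted p = 0.5, below those of the other 5 named.

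Few members differed between OHCs and IHCs. The OHC sum over the IHC sum averaged 0.972 (0.943 to 1.01) at E16, 0.984 (0.947 to 1.01) at P1 and 0.947 (0.91 to 0.984) at P7. At E16, limma called 0 of 86 members higher and 0 lower in OHCs, where 0.389% and 0.584% of 8734 genes passed. At that age 12 members had an unadjusted p under 0.05, and the share of all genes at that threshold is not given here. At P1, 3 of 85 were higher in OHCs and 8 lower, against 6.14% and 4.77% of 8923 genes, and at P7, 2 of 86 were higher and 8 lower, against 6.40% and 5.20% of 8884 genes. This P7 fit too rests on 2 libraries, with a spread shared over all genes rather than estimated for each. The median fold of the members was -0.054, 0.0025 and -0.072 on the log2 scale, beside -0.013, 0.023 and -0.0046 for all genes. Without the library block 0 members passed at P1 and P7, and under the stricter gate 7 passed at P1 in place of 11, Ndufv3, Cox7a2l and Uqcr11 not among them.

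Among the members higher in OHCs, Ndufv3 was at 727, 511, 533 and 324 CPM in OHCs and 553, 424, 363 and 288 CPM in IHCs at P1 (log2 fold change 0.34, adjusted p = 0.015). Cox7a2l was at 626, 1056, 1182 and 1000.1 CPM against 451, 806, 969 and 920.2 CPM at P1 (0.31, adjusted p = 0.00473), and Ndufa4 at 2333 and 3249 CPM against 1908 and 2566 CPM at P7 (0.31, adjusted p = 0.02). Each was higher in OHCs within every library, while the ranges over libraries overlapped for all 3. Without the filter on low values none of the 3 passed, with adjusted p from 0.051 for Ndufa4 to 0.0771 for Ndufv3, and Ndufv3 did not pass without P1 replicate 1 or replicate 3.

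Atp5g1, Ndufs6, Uqcrq and Cox7b were lower in OHCs at both P1 and P7. Atp5g1 was at 899.7, 604, 515 and 437 CPM in OHCs and 1205, 828, 652 and 622 CPM in IHCs at P1 (log2 fold change -0.42, adjusted p = 1.90e-04) and at 804 and 837 CPM against 1158 and 1389 CPM at P7 (-0.62, adjusted p = 9.23e-05). It was lower in 4 of 4 P1 libraries and both P7 libraries, with ranges that overlap at P1. Ndufs6, a zinc-binding accessory subunit of complex I, was at 454, 395, 429.6 and 452 CPM against 705, 485, 581 and 550.2 CPM at P1 (-0.40, adjusted p = 0.00192). Uqcrq, a small complex III subunit, was at 1234, 865, 867 and 674 CPM against 1533, 1075, 987 and 944 CPM at P1 (-0.32, adjusted p = 0.00178). Among the members called lower at P7, the lowest fold was that of Ndufa2 (-0.72), at 299 and 703 CPM in OHCs and 479.9 and 1213 CPM in IHCs, followed by Atp5g1, Ndufs6, Ndufab1 (-0.55), Ndufb2 (-0.55) and Atp5e (-0.49). Ndufb2 did not pass under the stricter gate (-0.54, adjusted p = 0.0722). At P1 Ndufa1 (-0.44), Cox5a (-0.30) and Uqcr11 (-0.26) were among the 8 lower. Ndufa1 and Uqcr11 did not pass without P1 replicate 2, nor Cox5a without P1 replicate 1. Without the filter on low values, Cox5a (adjusted p = 0.093) and Uqcr11 (adjusted p = 0.075) did not pass either.

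Ages were then compared within each class, where age and library preparation cannot be told apart and the 3 classes come from the same libraries. From E16 to P1, 5 of 86 members were higher and 4 lower in IHCs (4.04% and 2.80% of 8938 genes), 9 of 85 higher and 5 lower in OHCs (8.09% and 3.81% of 8854), and 1 of 86 higher and 6 lower in lateral SCs (1.44% and 1.38% of 8536). From P1 to P7, 3 of 85 were higher and 1 lower in IHCs (2.68% and 3.61% of 9019), 10 of 85 higher and 3 lower in OHCs (9.79% and 13.1% of 8983), and 1 of 86 higher and 1 lower in lateral SCs (4.84% and 6.08% of 8489). The median log2 fold change from E16 to P1 was 0.15 in IHCs, 0.12 in OHCs and -0.16 in lateral SCs (all genes 0.13, 0.16 and 0.085), and from P1 to P7 0.50, 0.45 and 0.23, beside -0.022, -0.063 and -0.076 for all genes. These counts hung on single libraries. Without P1 replicate 1, 16 members were called from P1 to P7 in IHCs, 24 in OHCs and 11 in lateral SCs, and without P7 replicate 5, 0, 2 and 0. From E16 to P1 in lateral SCs, 15 were called without P1 replicate 1. Under the stricter gate 5 were called from E16 to P1 in IHCs in place of 9, and 0 from P1 to P7 in lateral SCs in place of 2. Shares over all genes in these alternative runs are not given here either.

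The members that were higher in both HC types at P1 than at E16 were Ndufb9, Cox6a1 and Ndufv2. Ndufb9 in OHCs went from 407, 446 and 452 CPM to 1004, 867, 949 and 879.8 CPM (log2 fold change 1.07, adjusted p = 0.00293) and in IHCs from 336, 396 and 451 CPM to 1044, 777, 958 and 899.6 CPM (1.20, adjusted p = 0.00247). Neither type overlapped between the ages. Ndufv2 was higher by 1.08 in OHCs and 1.03 in IHCs, and Cox6a1 by 0.69 and 0.80. In OHCs Ndufaf3 (1.73), Ndufa8 (1.25), Ndufv1 (1.13) and Uqcrfs1 (1.06), the Rieske iron-sulfur protein, were also higher, and in IHCs Atp5o (0.89) and Ndufb8 (0.84). Atp5o is among the members with shared 3′ sequence. Ndufb9 in both types and Ndufa8 in OHCs passed in all 12 alternatives, the other settings and the omission of each library in turn, whereas Ndufv2 lost the call in 9 of them in IHCs and 5 in OHCs, Cox6a1 in 8 in IHCs, Ndufb8 in 11, Ndufv1 in 9, Atp5o in 6, Uqcrfs1 in 4 and Ndufaf3 in 2. Without E16 replicate 1 the fold of Ndufaf3 in OHCs was 1.02, and under the stricter gate that of Ndufv1 was 0.70.

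Atp5k, Uqcrb, Ndufa3 and Atp5e, all small subunits, were lower at P1 than at E16 in IHCs, OHCs and lateral SCs. Atp5k was at 518, 469.5 and 714 CPM in HCs at E16 and 322, 117, 97.8 and 69.4 CPM at P1, and at 431, 388 and 504 CPM and 134, 32.5, 42.8 and 34.9 CPM in lateral SCs. Its log2 fold change was -2.06 in IHCs, -1.98 in OHCs and -2.86 in lateral SCs, and that of Uqcrb was -2.45, -2.52 and -2.09. The same shift was seen over all cells of the libraries, which held 66.6 and 94.5 CPM of Atp5k at E14, 388, 365 and 465 CPM at E16, 157, 50.3, 52.1 and 35.5 CPM at P1 and 72.5 and 136 CPM at P7. For Uqcrb they held 67.9 and 86.1 CPM at E14, 397, 410.0 and 409.7 CPM at E16, 180.0, 37.0, 35.8 and 117 CPM at P1 and 67.6 and 106 CPM at P7. The E16 libraries were thus above those of the other 3 ages over all cells, and P1 replicate 1 was above the other P1 libraries. Ndufa3 passed the test in OHCs with library values that overlapped between E16 and P1, so that its alternatives there are not counted below. In lateral SCs Ndufa1 (-1.11) and Atp5j2 (-1.02) were lower at P1 too, and in OHCs Cox6c (-0.87), which shares 3′ sequence with other genes. Atp5k in all 3 classes, Uqcrb in both HC types and Ndufa3 in IHCs passed in all 12 alternatives, whereas Atp5e lost the call in 9 in IHCs, 6 in lateral SCs and 1 in OHCs, Uqcrb in lateral SCs in 3, Ndufa3 in lateral SCs in 1, Ndufa1 in 11, Atp5j2 in 8 and Cox6c in 5.

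**Figure D5:**
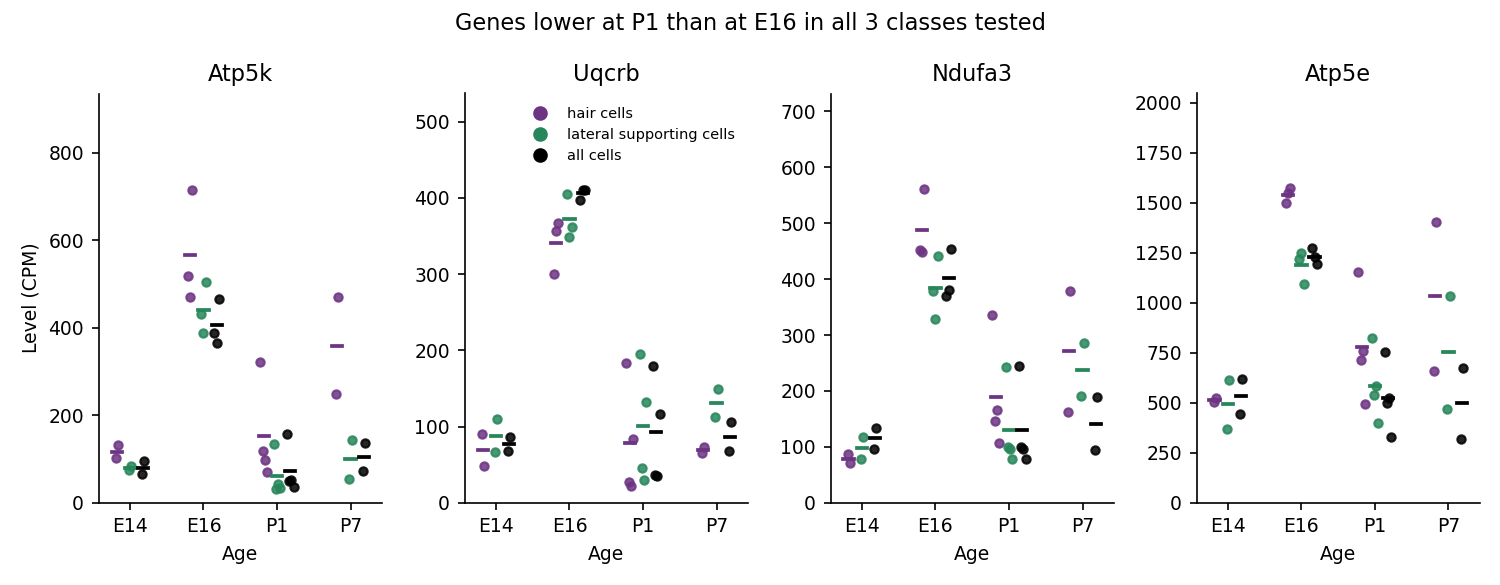
Level in CPM (y axes, from 0) of Atp5k, Uqcrb, Ndufa3 and Atp5e at each age (x axis) in HCs, lateral SCs and all cells. Points are libraries and bars their means; the E16 libraries stand above those of the other ages in every series except Atp5k in HCs, where P7 replicate 5 reaches them, as for Uqcrb over all cells, 397 to 410.0 CPM at E16 and 35.8 to 180.0 CPM at P1.

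From P1 to P7, Ndufa1 and Uqcr10 were higher in both HC types. Ndufa1, a small accessory subunit of complex I, was at 454, 206, 195 and 166 CPM in OHCs at P1 and 631 and 1359 CPM at P7 (log2 fold change 1.93, adjusted p = 0.00157), and rose in IHCs by 1.51. In OHCs Cox5a, a complex IV subunit, went from 662, 632, 595 and 521 CPM to 1359.5 and 1661 CPM (1.31, adjusted p = 0.00109), with no overlap. Uqcr10 (1.23), Uqcrq (0.93), Ndufb9 (0.90) and Ndufs8 (0.83) were also higher in OHCs, and Cox7c (1.35), whose 3′ sequence is largely shared with other genes, in IHCs. Ndufaf6 was lower at P7 in all 3 classes, by log2 fold changes of -2.48, -2.41 and -1.12 in IHCs, OHCs and lateral SCs. In lateral SCs its P7 values lay below the 10 CPM filter, which it passed there through P1. In OHCs it went from 178, 160.1, 205 and 226 CPM to 24.5 and 31.6 CPM (adjusted p = 1.44e-05), and over all cells from 28.8, 26.6, 37.0 and 42.0 CPM to 15.9 and 11.0 CPM. Cox4i2 (-1.03) and Ndufaf3 (-0.88) were lower in OHCs, and Cox7b was higher in lateral SCs (1.17). Cox5a and Ndufaf6 in OHCs passed in all 11 alternatives, and the other calls were less firm. Without P7 replicate 5, Ndufa1 in either type was not called, nor were Ndufaf6 in IHCs (-1.42, adjusted p = 0.167), Uqcr10 in OHCs (0.79, adjusted p = 0.262), Uqcrq (0.57, adjusted p = 0.364) and Ndufaf3 (-0.49, adjusted p = 0.423). Ndufaf6 in lateral SCs lost the call in 5 of 11, without either P7 library among them. In OHCs Uqcrq lost it in 5, Ndufs8 in 4, Ndufaf3 in 4, Ndufb9 in 3 and Cox4i2 in 3, and under the stricter gate Cox4i2 was at -1.55. Cox7b in lateral SCs lost it in 9, and Cox7c and Uqcr10 in IHCs in 7 each.

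Within the lateral SCs of P1, cells with markers of Deiters' cells of the third row (Fgf3, Igfbpl1, Lgr5 and Ramp3) were set against the rest. Of 86 members, 1 was higher and 1 lower, against 2.11% and 2.18% of 8491 genes. Cox4i2 was at 344, 348, 389 and 198 CPM in these cells and 479.9, 459.6, 556 and 247 CPM in the other lateral SCs, lower in 4 of 4 libraries (log2 fold change -0.42, adjusted p = 0.00864). Uqcrq was at 1388, 932, 906 and 817 CPM against 1034, 833, 696 and 770.4 CPM, higher in 4 of 4 (0.26, adjusted p = 0.0444). Leaving out replicate 1 or replicate 3, limma called 0 of the 86 members.

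Other mitochondrial gene lists give the setting of the HC to lateral SC comparison. A list of 7 genes, for complex II subunits, cytochrome c and cytochrome c1 of complex III (Cyc1), had 1 higher and 0 lower of 6 tested at E16, 4 and 0 of 6 at P1, and 3 and 0 of 6 at P7, with Cyc1 the largest rise at P1. The 13 mitochondrially encoded subunits had 5 higher and 0 lower of 11 tested at E16, 7 and 0 of 7 at P1, and 8 and 0 of 8 at P7, with mt-Nd2 the largest rise at each age. Of 31 further assembly factors, the counts were 5 higher and 0 lower of 24 tested at E16, 13 and 3 of 25 at P1, and 8 and 2 of 25 at P7, led at P1 by Sco2, a copper chaperone of complex IV, with Foxred1 the largest fall. The mitochondrial ribosome, 78 proteins, had 8 higher and 1 lower of 76 tested at E16, 29 and 9 of 75 at P1, and 15 and 5 of 74 at P7, and the cytosolic ribosome, 88 proteins, had 3 higher and 30 lower of 83 tested at E16, 1 and 64 of 83 at P1, and 4 and 31 of 82 at P7. The shares over all genes given above (32.8% higher and 27.1% lower at P1) are the background for these counts as well.

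Of 17 regulators of mitochondrial biogenesis, the counts were 1 higher and 0 lower of 11 tested at E16, 4 and 4 of 14 at P1, and 4 and 2 of 13 at P7, with Ppargc1b, a coactivator of respiratory genes, the largest rise at P1 and P7. Of 20 protein import genes they were 3 higher and 0 lower of 20 tested at E16, 6 and 2 of 19 at P1, and 4 and 3 of 20 at P7. Over all genes 32.8% were higher at P1 and 28.3% at P7, so that the shares higher of both lists lie near or below the background at these ages. Creatine kinases, adenine nucleotide and phosphate carriers and the VDAC pores, 10 genes that move high-energy phosphate, had 2 higher and 2 lower of 8 tested at E16, 2 and 4 of 8 at P1, and 3 and 2 of 8 at P7, with Ckmt1, the mitochondrial creatine kinase, the largest rise at all 3 ages. The TCA cycle list of 16 genes had 2 higher and 0 lower of 16 tested at E16, 8 and 2 of 16 at P1, and 9 and 2 of 16 at P7. The glycolysis list of 17 had 2 higher and 10 lower of 16 tested at E16. At P1 these counts were 5 and 9 of 16, and at P7 3 and 7 of 16. Aldoc was the largest fall at all 3 ages, and Pfkp the largest rise at E16 (log2 fold change 1.70) and P1 (2.77).

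Low levels and shared sequence limit some members. Cox7b2 and Ndufa4l2 were below the mean of 10 CPM needed for a test in every comparison. Cox7a1 was below it in all but the P7 comparisons of HCs with lateral SCs and of OHCs with IHCs, and Cox6b2 in 6 of the 15. Cox6a2 and Cox8b were below it within P1 and had no values at the other ages, so that comparisons with those ages left them out. For 10 members, more than 20% of the 50-base stretches in the last 300 bases of their transcripts also occur in other genes, so that reads could be dropped or split between copies. They are Atp5g1, Atp5g2, Atp5h, Atp5l, Atp5o, Cox6c, Cox7c, Ndufs3, Ndufs5 and Uqcrb, with the highest share, 73.3%, for Cox7c. Like Ndufb9, Ndufb8 (Gm20538), Ndufb2 (Gm42420), Atp5o (Donson) and Atp5g2 (Mir688) have exons that overlap those of the same-strand gene named in parentheses.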

How the data were processed

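Single-cell libraries of the cochlear duct at 4 ages were aligned to mm10 and counted by the authors with Cell Ranger 2.1.1, and cells and genes were filtered with Seurat 2.0, which left out cells with unusual depth or a high share of mitochondrial or stress transcripts. The deposited values are the natural log of 1 plus 10000 times the fraction of a cell's UMIs that a gene takes. UMIs were worked back from them and came out whole, within 2%, for all values. Total depth was 3828399 to 23523802 UMIs per library, and pairs of libraries shared at most 36 barcodes (0.923% of the smaller library), and at most 0.958% of the smaller library (another pair, with 17). Cells were gated by markers (for HCs, at least 50 of 10000 UMIs in the list and 4 of its 10 markers seen). Doublets were not called.

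For every library, cells of the same class (5 or more) gave 1 profile, the average CPM of each gene. Genes averaging 10 CPM or more were tested on log2(CPM + 10) with limma 3.58.1 in R 4.3.3, with p-values adjusted over all genes tested by the Benjamini-Hochberg method and a threshold of 0.05. The 10 CPM added understates fold changes of low genes, and can overstate a change of fold where a level drops towards it. Classes of the same libraries were compared with the library as a block, and ages without. The fits were tested on simulated data. Named were up to 6 members per direction that passed the test and moved alike in every library, or without overlap, and the isoform sets. Other members named, such as Ndufs1, Uqcrc1, Uqcrc2 and Atp5b, were chosen after their values were seen. Results of 1 member are not reported here, though it is included in the counts and sums. Members and lists were chosen with earlier results of these data known. Python 3.11.15 and pandas 2.3.3 were used for the rest, and gene positions follow GENCODE vM21 (GRCm38), in which 90 of the 91 members were found.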

Additional observations from a re-analysis of the deposited data

Results flagged for a closer look

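Among the P1 libraries, 9 of 88 groups of 4 values held a library that stood apart by Dixon's test, where chance gives about 1 in 20. Replicate 1 was the highest for Atp5k (134 CPM), Ndufa3 (243 CPM) and Ndufa4 (1365 CPM) in lateral SCs, and for Atp5o (1068 CPM), Ndufa4 (2343 CPM) and Ndufa5 (483 CPM) in HCs, and the lowest for Cox7a2l in lateral SCs (708 CPM). Replicate 2 was the highest for Cox7c in HCs (62.4 CPM) and replicate 4 the lowest for Ndufs8 in lateral SCs (163 CPM).

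The difference between HCs and lateral SCs itself differed between ages for the following named members, by limma on the within-library differences. From E16 to P1 it grew on the log2 scale by 0.90 for Ndufaf6, 0.82 for Atp5k, 0.75 for Cox6a1, 0.72 for Ndufa8, 0.65 for Uqcr11 and 0.61 for Atp5j, and changed by -1.98 for Cox4i2 and -0.53 for Atp5g1. Of these, Ndufaf6, Atp5k, Cox6a1, Ndufa8 and Atp5g1 passed neither under the stricter gate nor without the filter on low values, and the growth for Ndufaf6 was 0.45 under the stricter gate. From P1 to P7 it grew by 0.92 for Ndufv1, 0.87 for Ndufb7, 0.87 for Uqcrh, 0.83 for Cox8a and 0.79 for Ndufa6, and changed by -1.19 for Ndufaf3 and -1.18 for Ndufaf6, the last not passing with 1 CPM added (-0.94, adjusted p = 0.0795).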

How the results depend on the processing

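Of 155 alternative counts of members called, 88 lay within 1.5 times the reported count, and 0 of the named members reversed in any alternative run; of 104 named results, 855 alternatives kept the call and 230 lost it. For HCs against lateral SCs 22 of 28 named results passed in every alternative. The counts of members called, higher and lower together, were as follows, without the shares over all genes under each setting. The cause of each move was not tested. With a pseudocount of 1 CPM, P1 against E16 gave 5 in IHCs (9 reported) and 9 in OHCs (14), P7 against P1 gave 2 in IHCs (4) and 1 in lateral SCs (2), and Deiters-type cells of the third row gave 1 (2). Without the filter on low values, where more genes are tested, P1 against E16 gave 4 in IHCs, 4 in OHCs and 2 in lateral SCs (7), P7 against P1 gave 2 in IHCs, 8 in OHCs (13) and 0 in lateral SCs, the change of the HC excess gave 8 up to P1 (18) and 16 up to P7 (25), OHCs against IHCs gave 2 at E16 (0) and 5 at P1 (11), and the Deiters-type cells gave 0. Centred on the median gene, P1 against E16 gave 5 in IHCs and 8 in OHCs, P7 against P1 gave 1 in lateral SCs, and the Deiters-type cells gave 1. With UMIs summed over cells, P7 against P1 gave 7 in IHCs. With the stricter gate, P1 against E16 gave 5 in IHCs, P7 against P1 gave 0 in lateral SCs, the change up to P1 gave 7, HCs against lateral SCs gave 14 at E16 (24), OHCs against IHCs gave 7 at P1, and the Deiters-type cells gave 1.

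Leaving out 1 library at a time, limma called 4 to 12 members for P1 against E16 in IHCs, 7 to 16 in OHCs and 3 to 15 in lateral SCs, 0 to 16 for P7 against P1 in IHCs, 2 to 24 in OHCs and 0 to 11 in lateral SCs, 13 to 19 for the change of the HC excess up to P1 and 11 to 25 up to P7, 15 to 25 for HCs against lateral SCs at E16 and 63 to 66 at P1, 0 to 1 for OHCs against IHCs at E16 and 8 to 10 at P1, and 0 to 2 for the Deiters-type cells. Within P7 a single library leaves no residual degrees of freedom, so that no such value could be had. The lone P7 library left in an age comparison is assumed to vary like the other groups. The median fold of the members changed sign in 7 alternatives, all with medians near 0, of OHCs against IHCs at E16 and P1 and of P1 against E16 in OHCs.

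Without the library block, HCs against lateral SCs gave 10 members at E16, 33 at P1 and 45 at P7, and OHCs against IHCs gave 0 at E16, P1 and P7, as did the Deiters-type cells. With the replicate number as a block, P1 against E16 gave 8 in IHCs, 14 in OHCs and 5 in lateral SCs. The numbers do not pair these libraries: deviations of same-numbered E16 and P1 libraries correlated at -0.087 to 0.0587, and only replicate 1, in IHCs and lateral SCs, correlated best with its own number.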
